A study of Mus musculus with 42 samples.

Results

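Fibromodulin (Fmod) and 7 other genes of the small leucine-rich proteoglycans, Dcn, Lum, Bgn, Ogn, Omd, Prelp and Aspn, were followed across neuronal cultures and embryonic brain tissue of the Fmr1 knockout mouse. The genes were chosen by name as a family, after the rise of Fmod in the cultures had been seen on these same arrays, so every difference of these 8 genes between culture and tissue is given here as a description, with no test. All 8 genes were measured, on 19 of the 45037 probe sets tested; the whole array covered 18193 genes. Where a gene had several probe sets, it was read on the one with the highest mean over all arrays, and the others are given where they differed.

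Small leucine-rich proteoglycans are secreted matrix proteins with a curved core of leucine-rich repeats, most of which carry chondroitin, dermatan or keratan sulfate chains. They coat collagen fibrils and set the spacing and thickness of the fibrils, and several of them hold growth factors of the TGF-beta family in the matrix. In the brain their usual sources are the meninges, the vessel walls and the choroid plexus, while the matrix around neurons is made mainly of other proteoglycans, the lecticans.

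The data were 42 Affymetrix whole-genome mouse arrays from C57BL/6 mice, covering 2 cultures and 2 tissues. The KO mice lack Fmr1, whose product FMRP is an RNA-binding protein that holds back translation at synapses, and the WT mice carry it; no group was treated. Hippocampal and cortical cultures came from embryos of 17 to 18 days post conception and were kept for 14 days in vitro, with 5 KO and 5 WT arrays each. Primary hippocampus (6 KO and 6 WT arrays) and primary cortex (5 and 5) were the tissues of such embryos, so culture and tissue differ in age as well as in setting. Each sample was pooled from littermates and carries a mouse ID; 10 of 12 IDs recur in all 4 systems, and an ID is read here as a litter, which the labels do not state. Values are log2 expression on the scale the authors deposited, and ± is the SD over arrays.

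A level of 5.16, the 95th percentile of probe sets for olfactory, vomeronasal and keratin-associated genes, was taken as background, and 69.4% of genes were above it in at least 1 group. Of 3 Fmr1 probe sets, 1 was lower in KO in every system, with log2 differences from -0.90 to -0.99 (limma, adjusted p from 8.38e-08 to 2.6e-06), while the others, between -0.15 and -0.80, did not pass the adjusted threshold (adjusted p from 0.125 to 1.0). All 12 neuronal markers were above background in both cultures, as were 14 of 15 astrocyte markers. Of 8 endothelial genes Kdr (8.53 in hippocampal and 7.72 in cortical culture) and Esam (5.58 and 5.44) were above background in both cultures, while the defining genes Cldn5 and Cdh5 were at background. The microglial genes Cx3cr1, P2ry12 and C1qa were at background in both cultures, and Csf1r was above it (6.17 and 5.33). Bulk arrays cannot tell fewer cells of a type from less RNA per cell.

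The genes sit in 3 clusters and 1 single locus in the mouse genome (RefSeq, GRCm38.p6). On chromosome 1, Optc, Prelp and Fmod follow each other, with 107.2 kb between Prelp (133910304 to 133930102) and Fmod (134037254 to 134048280). On chromosome 10, Dcn (97479500 to 97518163) lies 47.3 kb before Lum (97565501 to 97572703), and Kera and Epyc come next. On chromosome 13, Ecm2, Aspn, Omd and Ogn lie within 15.4 kb of their neighbours, Ogn at 49608015 to 49624501. Bgn is apart on chromosome X (73483601 to 73495936).

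The 250 bases before the annotated starts of Fmod, Prelp and Ogn are shown because these 3 genes varied together from array to array in the cultures, as given further on; capitals mark matches, on either strand, to TATAAA (the TATA box), GGGCGG (the GC box), CCAAT (the CCAAT box), CAGAC (a core bound by Smad proteins) and TGACTCA (the AP-1 site). They are from RefSeq, GRCm38.p6, at chr1:134037004-134037253 on the plus strand for Fmod, chr1:133921402-133921651 on the minus strand for Prelp (before the start of a transcript that begins inside the listed span of the gene) and chr13:49607765-49608014 on the plus strand for Ogn.
Fmod: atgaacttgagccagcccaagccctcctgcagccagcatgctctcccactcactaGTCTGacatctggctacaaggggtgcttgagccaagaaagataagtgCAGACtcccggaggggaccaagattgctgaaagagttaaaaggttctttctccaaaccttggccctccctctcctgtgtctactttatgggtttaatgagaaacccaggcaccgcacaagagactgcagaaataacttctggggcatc
Prelp: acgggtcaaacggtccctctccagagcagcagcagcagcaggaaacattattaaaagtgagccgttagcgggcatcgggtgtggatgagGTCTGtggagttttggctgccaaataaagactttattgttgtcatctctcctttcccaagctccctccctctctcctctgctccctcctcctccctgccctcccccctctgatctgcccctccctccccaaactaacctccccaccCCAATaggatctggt
Ogn: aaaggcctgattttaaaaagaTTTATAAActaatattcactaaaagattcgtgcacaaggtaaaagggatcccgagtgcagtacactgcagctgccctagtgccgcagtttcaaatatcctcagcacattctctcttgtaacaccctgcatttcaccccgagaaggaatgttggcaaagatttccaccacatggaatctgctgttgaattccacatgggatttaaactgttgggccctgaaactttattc
Fmod held CAGAC once on each strand, Prelp held it once, and Ogn held none; 42.2% of 32851 promoters of the same length held CAGAC on either strand. Prelp also held CCAAT, which 33.8% of promoters hold, close to its start. Ogn held 2 overlapping TATAAA matches far from the start, a motif found in 12.4% of promoters. None of the 3 windows held GGGCGG (32.7% of promoters) or TGACTCA (4.5%). No motif of those searched was in all 3 windows, and CAGAC was in those of Fmod and Prelp. A match is only a match of letters.

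The cultures and tissues were compared first, gene by gene. Fmod, a keratan sulfate proteoglycan that binds collagen I, differed most of the 8: it averaged 10.87 ± 0.89 in 10 hippocampal cultures against 5.33 ± 0.55 in 12 hippocampi, and 10.23 ± 1.003 in 10 cortical cultures against 3.92 ± 0.11 in 10 cortices. In hippocampal culture the KO arrays read 11.002, 10.83, 10.45, 11.21 and 9.18, and the WT arrays 10.41, 11.41, 12.51, 10.24 and 11.47. In cortical culture the KO arrays read 11.26, 11.21, 10.64, 10.93 and 8.72, and the WT arrays 11.27, 10.27, 9.29, 9.89 and 8.81. The 2 cultures overlapped each other, and every culture array lay above every tissue array.

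In primary hippocampus Fmod ran from 4.77 to 6.04 in KO (median 5.12) and from 4.78 to 6.48 in WT (median 5.41), so it straddled the background level. In primary cortex it read 3.80, 3.91, 4.02, 3.78 and 4.14 in KO and 3.84, 3.86, 3.94, 3.995 and 3.88 in WT, all below background. The difference of culture and tissue was 5.54 (standard error 0.29) on the log2 scale, or 46.5-fold, in hippocampus and 6.31 (0.30) in cortex, where, against the background level, it was at least 33.6-fold. All 6 Fmod probe sets showed it, the other 5 with log2 differences from 4.004 to 4.51 in hippocampus and from 3.48 to 3.90 in cortex. Among those, 1415939_at is the only one whose name does not mark probes shared with other sequences, and it gave 4.51 and 3.90. All 5 were below background in both tissues, and against that level the cultures were at least 7.3- to 20.1-fold higher in hippocampus and at least 5.23- to 11.5-fold higher in cortex.

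Ogn (osteoglycin), a further collagen-binding member of the family, came second. Its KO arrays read 9.13, 9.34, 9.04, 9.31 and 6.85 in hippocampal culture and 10.05, 10.29, 9.47, 9.60 and 6.58 in cortical culture; its WT arrays read 8.37, 9.47, 10.99, 8.18 and 9.42, and 10.22, 8.33, 8.08, 7.89 and 6.98. In tissue it ran from 4.66 to 6.03 in hippocampus (median 5.60) and from 3.78 to 5.03 in cortex (median 4.06), below every culture array. The log2 difference was 3.50 (standard error 0.37) in hippocampus and 4.53 (0.38) in cortex, where it was at least 12-fold against background. The second probe set, 1419662_at, gave 3.07 and 3.55.

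The 8 genes did not share one direction. Prelp, a member that binds heparan sulfate and collagen, was higher in culture by 0.83 (standard error 0.23) in hippocampus, with overlapping arrays, and by 1.66 (0.24) in cortex, at least 1.79-fold against background with no overlap. Its second probe set 1416322_at showed 0.02 and 0.26. Omd (osteomodulin, which binds hydroxyapatite in bone) was higher by 0.72 (0.16) and 1.17 (0.16), but its mean passed the background level in cortical culture only, at 5.37 ± 0.61.

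Bgn and Dcn, the pair that carry chondroitin or dermatan sulfate and bind TGF-beta, behaved otherwise. Bgn (biglycan) was lower in culture by -1.01 (standard error 0.28) in hippocampus and by -0.56 (0.29) in cortex, and its array ranges overlapped in both. Its other probe sets gave -0.18 and 0.06 (1437889_x_at) and -0.82 and -0.28 (1448323_a_at), none of them past 2-fold. Dcn (decorin) was lower by -1.70 (0.43) in hippocampus and higher by 1.09 (0.44) in cortex, also with overlap. Lum (lumican), a corneal keratan sulfate proteoglycan, had no group mean above background, although single hippocampal arrays reached 5.57. Aspn (asporin) stayed between 3.24 and 3.79 on all arrays, and its second probe set and that of Dcn, 1441506_at, averaged below background in every group too.

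By a 2-fold limit, 2 of 8 members (Fmod, Ogn) were higher and 2 (Bgn, Dcn) lower in hippocampal culture, while 8.4% of all genes were higher and 11.0% lower. In cortical culture 5 of 8 (Fmod, Ogn, Prelp, Omd, Dcn) were higher and 0 lower, against 8.24% and 9.87% of all genes. Since the genes were chosen with this comparison known, nothing is read from these counts. With values below background set to that level, only Fmod and Ogn were past 2-fold higher in cortex. The difference of Bgn in hippocampus, at -1.01, stood just past the limit and was under it when any of 8 arrays was left out (hippocampal culture KO 2620 and 4236 and WT 2236, 2643 and 3569, and primary hippocampus KO 2037 and 2221 and WT NT).

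**Figure D1:**
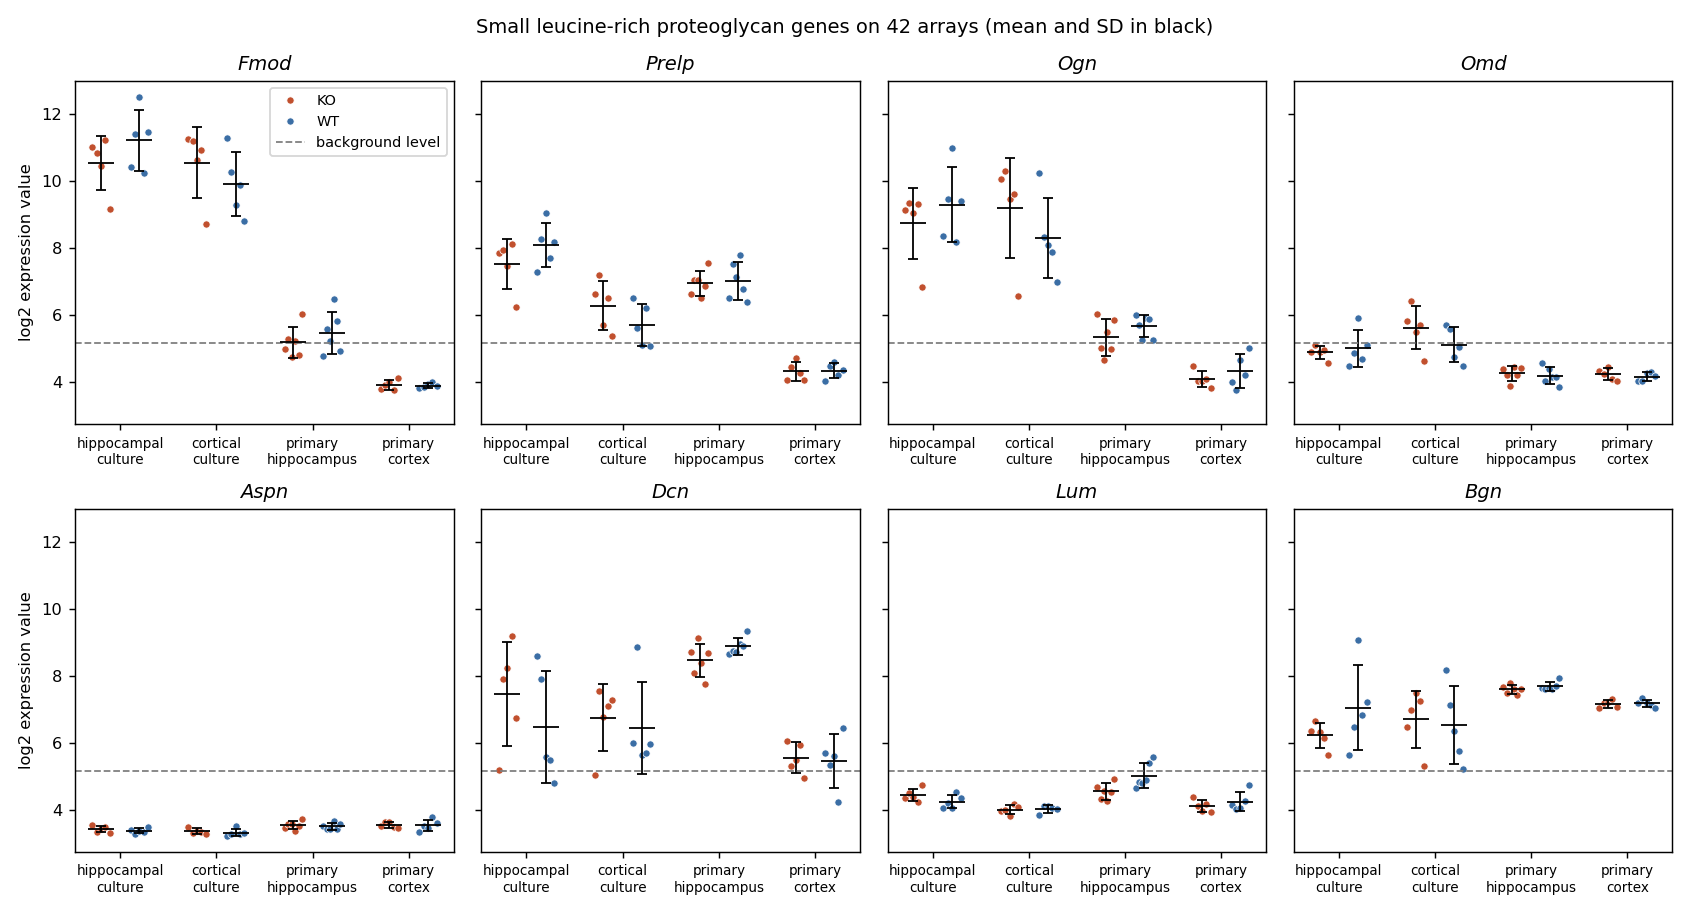
Log2 expression of the 8 genes (vertical axis) on every array of the 4 systems (horizontal axis), with KO arrays in red and WT arrays in blue, the mean and SD in black and the background level dashed. Fmod and Ogn lie higher on all 20 culture arrays than on all 22 tissue arrays, Aspn and Lum average below background in all 8 groups, and Dcn and Ogn spread most widely in the cultures.

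Other matrix genes were read from lists set up around the biology of the family, with earlier results of these data known. Their calls are thus no independent test of the lists. The calls are at an adjusted p under 0.05 in limma for the mean of both regions. By that measure 40.4% of all genes were higher in culture and 38.8% lower. Of 28 fibrillar collagen and fibril assembly genes, 17 were higher and 7 lower, with a median log2 difference of 0.37 against 0.02 over all genes. Col6a1 (1.70, standard error 0.08, adjusted p = 4.2e-22), at background in tissue, and Col5a1 (0.84, 0.06, adjusted p = 1.44e-16) were higher in culture, while the main fibrillar chains Col1a2 (-1.81, 0.12, adjusted p = 1.69e-16) and Col2a1 (-1.95, 0.09, adjusted p = 2.45e-21) were lower and at background in culture. Col1a1 and Col3a1 were also at background in both cultures. Fmod was thus high in cultures in which these 4 chains were not above background.

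Of 27 genes for chondroitin, dermatan and keratan sulfate synthesis, 12 were higher and 9 lower (median 0.12). The 4 with the smallest p were all higher: Chst2 by 2.77 (standard error 0.07), Chst1 by 1.86 (0.11), Chst11 by 1.52 (0.07) and Chpf by 1.51 (0.06). Chst1 and Chst2 place sulfate on keratan sulfate, and Chst11 and Chpf act on chondroitin. Of 28 other brain proteoglycans and link proteins, 20 were higher and 6 lower (median 0.66), with Hapln1, a link protein, 4.30 higher (standard error 0.13), Sdc4 3.71 higher (0.12), and Gpc2 and Vcan, of growing axons and immature matrix, lower by -4.16 (0.08) and -3.52 (0.09). Hapln1 was at background in tissue and Gpc2 in culture, so the sizes of these differences are not measured. Of 23 TGF-beta pathway genes, 8 were higher and 9 lower (median -0.03), with the receptor Tgfbr1 lower by -3.07 (0.11) and the carrier Ltbp1, at background in culture, lower by -2.64 (0.07). Of 8 other family genes, 2 were higher and 1 lower, with Podn higher by 0.37 (0.04, adjusted p = 1.17e-11).

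Markers of the cells that usually make these proteoglycans were read beside them. Of 18 genes for meninges and fibroblasts, 4 were higher and 8 lower in culture; their mean per array was 4.35 to 4.515 in hippocampal culture and 4.199 to 4.40 in cortical culture, against 4.997 to 5.67 in primary hippocampus and 4.49 to 4.63 in primary cortex. None of the 18 averaged above background in cortical culture and 3 did in hippocampal culture; Col1a1, Col1a2, Col3a1, Twist1, Tbx18 and Slc6a13 were at background in both. Of 11 pericyte and smooth muscle genes, 4 were higher and 5 lower: Acta2 was higher by 4.86 (standard error 0.20) and Tagln by 4.08 (0.21), while the pericyte channel genes Abcc9 and Kcnj8 were lower by -4.45 (0.05) and -2.46 (0.04) and at background in culture. Of 15 astrocyte genes, 12 were higher and 2 lower (median 1.24), and of 12 neuronal genes 10 were higher and 2 lower (median 1.70). Of 9 choroid plexus genes, 2 were higher and 5 lower (median -0.22). Of 8 endothelial genes 7 were lower and 0 higher, and of 10 microglial genes 9 were lower and 0 higher. The part of these cells in the level of Fmod was not tested.

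The next comparison was that of hippocampus and cortex, which the choice of the genes did not use. In tissue 5 of 8 genes were higher in hippocampus at an adjusted p under 0.05 in limma (Dcn, Prelp, Fmod, Ogn and Lum) and 0 were lower, where 19.7% of all genes were higher and 16.7% lower. Dcn and Prelp were above background on every hippocampal array.

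Dcn ran from 7.76 to 9.12 in KO hippocampus (median 8.54) and from 8.66 to 9.33 in WT (median 8.80). In cortex its KO arrays read 6.07, 5.31, 5.49, 5.94 and 4.94 and its WT arrays 5.69, 5.33, 5.61, 4.25 and 6.45. No cortical array reached the lowest hippocampal one, and the log2 difference was 3.16 (standard error 0.43, adjusted p = 1.42e-07), or 8.93-fold.

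Prelp ran from 6.51 to 7.56 in KO hippocampus (median 6.96) and from 6.39 to 7.79 in WT (median 6.95). Its cortical arrays lay between 4.03 and 4.73, all below background. The log2 difference was 2.65 (0.23, adjusted p = 3.84e-12), at least 3.54-fold against background, and 0.76 (0.09, adjusted p = 9.36e-09) on 1416322_at.

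The other 3 calls were on faint signals. Fmod differed by 1.42 (standard error 0.29, adjusted p = 0.000168), at least 1.13-fold against background, and none of its 5 other probe sets passed, with differences from -0.30 to 0.28. Ogn differed by 1.29 (0.37, adjusted p = 0.0058), at least 1.27-fold, and by 0.74 (adjusted p = 0.085) on its second probe set. Lum differed by 0.61 (0.10, adjusted p = 3.65e-06) with both means below background.

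Bgn was not called in the fit of all arrays, at 0.47 (standard error 0.28, adjusted p = 0.215), although its hippocampal arrays, at 7.43 to 7.94, all lay above its cortical ones, at 7.04 to 7.35. The shared spread was set by the cultures, where Bgn varied 8.06 times as much as in tissue; the fit of the tissue arrays alone gave the same difference with a standard error of 0.05 and an adjusted p of 1.93e-07. The other Bgn probe sets were not called in the fit of all arrays either. There 1448323_a_at gave 0.45 with no overlap (limma adjusted p = 0.202) and 1437889_x_at gave 0.13 with overlap (0.457). Omd and Aspn differed by 0.02 and -0.02, and the second Aspn probe set, below background, by -0.10 (adjusted p = 0.0419).

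Neighbouring family genes followed in part. Ecm2, next to Aspn, was higher in hippocampus by 2.46 (standard error 0.20, adjusted p = 4.35e-13) with its cortical level at background, and Optc, next to Prelp and also at background in cortex, by 0.47 (0.07, adjusted p = 2.89e-06). Of the 28 collagen and fibril genes 14 were higher and 2 lower (median 0.39 against -0.01 over all genes), with Col2a1 at 2.34 (0.13) and Col1a2 at 1.89 (0.17) higher and the procollagen protease Adamts3 at -1.29 (0.12) lower. Of the 23 TGF-beta genes 12 were higher and 3 lower, led by Ltbp1 at 2.65 (0.10), Tgfbr3 at 2.32 (0.14) and Tgfb2 at 2.23 (0.15).

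Markers of the meninges and choroid plexus moved the same way as Dcn and Prelp. Of 18 meningeal and fibroblast genes 11 were higher in hippocampus and 0 lower, with Pdlim3 at 3.25 (standard error 0.15) and Islr at 1.53 (0.15). Of 9 choroid plexus genes 8 were higher and 0 lower, with Ttr, the thyroxine carrier of the plexus, at 5.93 (0.64), Otx2 at 3.67 (0.29) and Calml4 at 2.69 (0.24). Pdlim3, Islr, Otx2 and Calml4 were at background in cortex, so the sizes of their differences are not measured. The mean of the plexus list was 5.96 to 7.57 per hippocampal array and 4.14 to 5.54 per cortical array. Astrocyte genes (11 of 15 higher, 1 lower) and microglial genes (8 of 10 higher, 0 lower) differed the same way, and neuronal genes (0 of 12 higher, 6 lower) the other way. The part of these cells in the differences of Dcn and Prelp was not tested.

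In the cultures 2 of 8 genes were higher in hippocampus, Prelp and Lum, and 0 lower, where 14.7% of all genes were higher and 13.5% lower. Prelp read 7.85, 7.94, 7.47, 8.13 and 6.26 in KO and 7.29, 8.27, 9.06, 7.71 and 8.17 in WT hippocampal culture. In cortical culture it read 6.62, 7.20, 5.72, 6.51 and 5.38 in KO and 6.50, 5.63, 5.11, 6.21 and 5.09 in WT. The ranges overlapped through the low KO array of hippocampal culture, and the log2 difference was 1.82 (standard error 0.24, adjusted p = 1.52e-07) and 0.52 (0.09, adjusted p = 4.28e-05) on the second probe set. Lum differed by 0.33 (0.10, adjusted p = 0.0147) with both means below background.

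Fmod was higher in hippocampal culture by 0.64 (standard error 0.30, adjusted p = 0.122) and was not called on the probe set that stands for it, but 4 of its other 5 probe sets passed, with differences from 0.69 to 0.83 and adjusted p from 0.0142 to 0.0375 in the same limma fit. Omd was at -0.42 (0.16, adjusted p = 0.0548), Ogn at 0.26 (0.38), Dcn at 0.37 (0.44) and Bgn at 0.02 (0.29), none of them called. Ecm2 had a difference of 1.62 (0.20, adjusted p = 7.07e-08), with its level in cortical culture at background. Choroid plexus genes differed here too, 4 of 9 higher and 0 lower, with Ttr, at background in cortical culture, at 5.94 (0.67) and Folr1 at 1.13 (0.24); its part in the difference of Prelp was not tested.

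The test of the region difference itself between culture and tissue called 1 of 8 genes, Dcn, whose excess in hippocampus was smaller in culture; the change was -2.79 (standard error 0.61, adjusted p = 0.000537). Of all genes, 17.1% changed in this direction and 14.9% in the other. Dcn averaged 6.96 ± 1.60 in hippocampal and 6.597 ± 1.14 in cortical culture, between its levels in the 2 tissues. For Prelp the change was -0.83 (0.33, adjusted p = 0.056), and -0.24 (limma adjusted p = 0.182) on its second probe set. For Fmod it was -0.77 (0.42, adjusted p = 0.182). The other 5 Fmod probe sets went the other way, with changes from 0.46 to 0.78, and none was called (adjusted p from 0.0668 to 0.371). Leaving out 1 culture array, KO 4236 of cortical culture, gave a count of 5 (Dcn, Fmod, Ogn, Omd, Prelp), leaving out WT 2644 of hippocampal culture gave 3 (Dcn, Omd, Prelp), and leaving out any of 9 other arrays gave 2 (Dcn, Prelp): KO 2221, WT 2644 or WT NT of cortical culture, KO 2038 or KO 2620 of hippocampal culture, KO 2221 of primary cortex, and KO 2620, WT 2236 or WT NT of primary hippocampus.

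**Figure D2:**
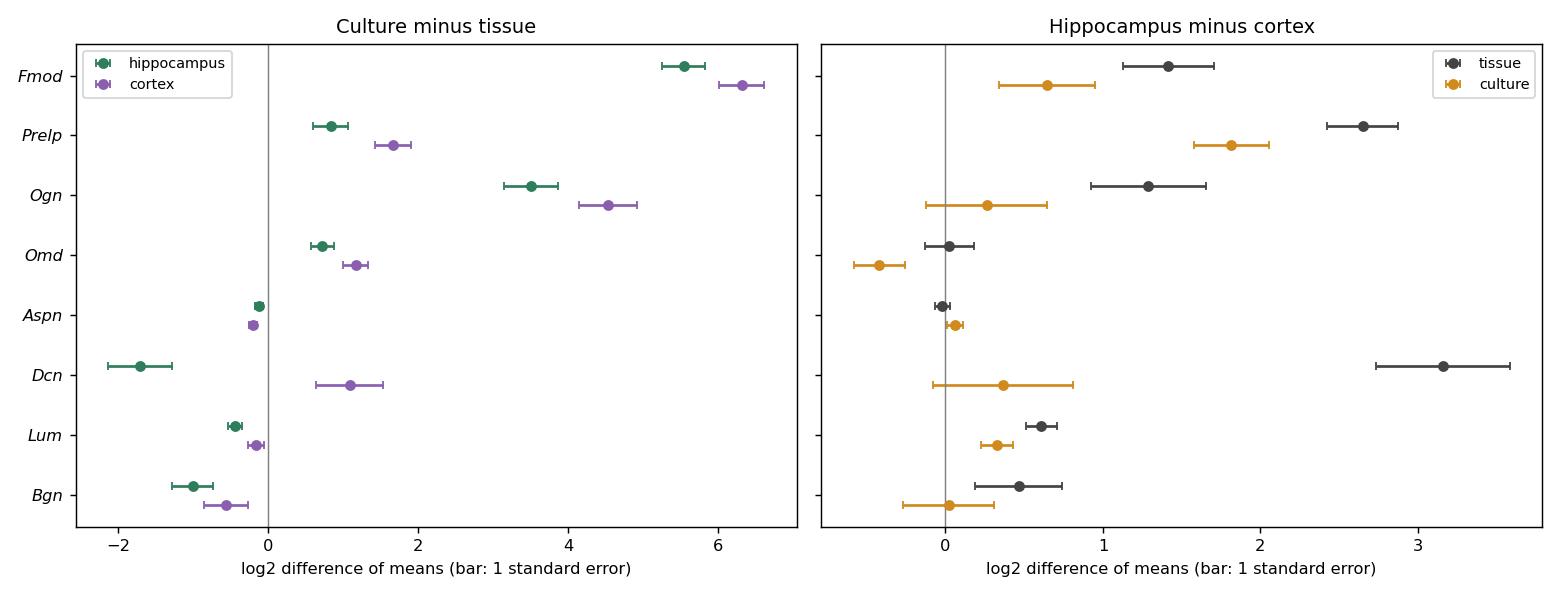
Log2 differences of group means with 1 standard error from the fit of all arrays, for culture minus tissue in hippocampus and cortex (left) and for hippocampus minus cortex in tissue and culture (right). Fmod lies near 6 and Ogn near 4 on the left; on the right Dcn goes from 3.16 in tissue to 0.37 in culture, while Prelp stays apart from 0 in both.

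Most members were among the more variable genes of the cultures. Within groups the SD of Dcn was 1.41 in culture, of Ogn 1.23, of Bgn 0.98, of Fmod 0.94, of Prelp 0.70 and of Omd 0.51, where the median gene had 0.17; in tissue the same genes had SDs from 0.12 to 0.52. Lum and Aspn, near or below background, had 0.16 and 0.09 in culture.

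Part of the variation was shared. Within each culture, Fmod was set against the 7 other members and against the mean of 13 gene lists over its 10 arrays, 40 relations in all, with permutation p-values adjusted over the 40. Ogn followed Fmod closely, with r = 0.97 and rho = 0.95 in hippocampal culture (adjusted permutation p = 0.00032 and 0.00125) and r = 0.97 and rho = 0.95 in cortical culture (0.000267 and 0.0012). Without the 2 arrays whose Fmod lay farthest from the median, KO 4236 and WT 2644 in hippocampal and KO 4236 and WT NT in cortical culture, r was 0.86 and 0.94.

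Prelp gave r = 0.97 and rho = 0.94 in hippocampal culture (adjusted permutation p = 0.000333 and 0.00125) and r = 0.86 and rho = 0.84 in cortical culture (0.00577 and 0.0103), and 0.88 and 0.82 without those arrays. Omd gave r = 0.83 and rho = 0.73 (adjusted permutation p = 0.0114 and 0.0373) and then r = 0.94 and rho = 0.93 (0.0002 and 0.00125), and 0.64 and 0.88 without them. With genotype means removed, r was 0.98 and 0.97 for Ogn, 0.97 and 0.84 for Prelp and 0.85 and 0.93 for Omd. These 3 genes thus varied with Fmod also within the genotypes.

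Bgn gave r = 0.79 in hippocampal culture (adjusted permutation p = 0.0209), with rho = 0.60 (0.122). Without the 2 arrays r was 0.35, so there the relation was not shown beyond them. Leaving out the arrays farthest from the median narrows the range of Fmod, which by itself tends to bring r closer to none. In cortical culture it gave r = 0.82 (adjusted permutation p = 0.0114), rho = 0.77 (0.0278) and r = 0.58 without them. Lum ran the other way in hippocampal culture, below background, with r = -0.74 and rho = -0.66 (adjusted permutation p = 0.0275 and 0.0758). Without the 2 arrays r was -0.22, so this relation too was not shown beyond them. Dcn did not pass, with r = -0.20 and rho = -0.19 (adjusted permutation p = 0.656 and 0.714) and r = 0.03 and rho = -0.03 (0.962 and 0.97). Its arrays read 5.18, 7.90, 8.24, 9.20 and 6.73 in KO and 8.58, 7.92, 5.57, 5.50 and 4.81 in WT hippocampal culture. In cortical culture they read 5.05, 7.54, 6.78, 7.10 and 7.29 in KO and 6.01, 8.87, 5.65, 5.71 and 5.96 in WT.

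**Figure D3:**
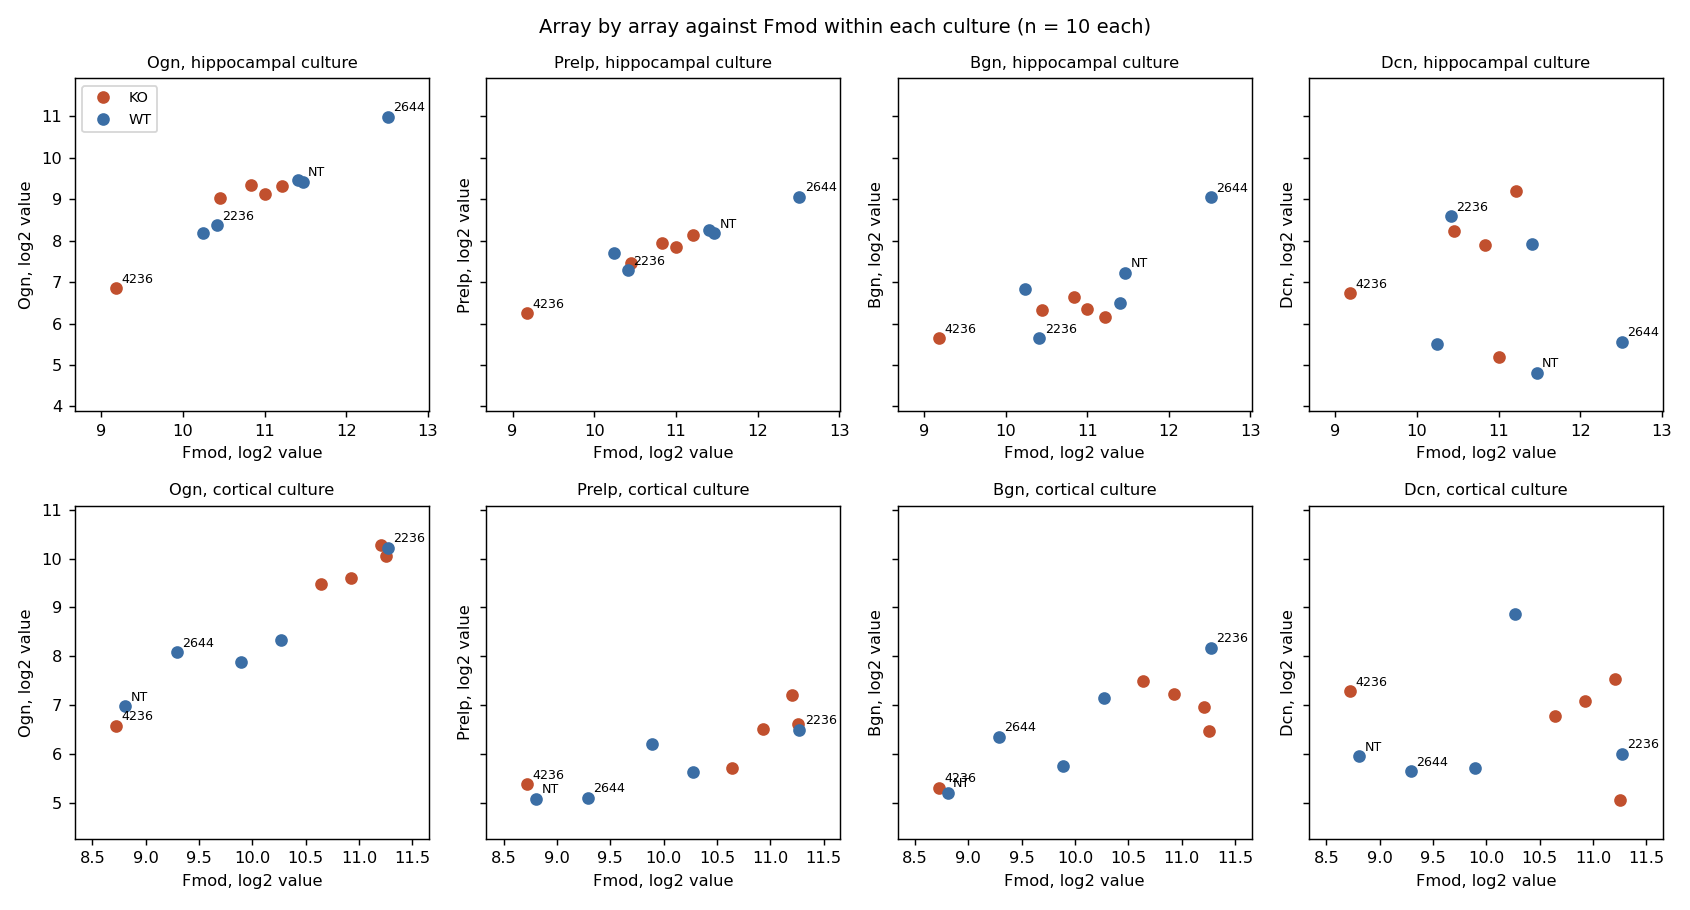
Log2 values of Ogn, Prelp, Bgn and Dcn (vertical axes) against that of Fmod (horizontal axes) on the 10 arrays of hippocampal culture (top) and of cortical culture (bottom), KO in red and WT in blue, with 4 mouse IDs written in. Ogn and Prelp climb with Fmod in both, with KO 4236 lowest and WT 2644 highest in hippocampal culture, and Dcn shows no slope (r = -0.20 and 0.03).

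The lists were read for other genes that shared this variation. The share of all genes that followed Fmod as closely was not computed. The values below therefore do not show that the relation was particular to the listed genes. The mean of the collagen and fibril list gave r = 0.96 and rho = 0.96 in hippocampal culture (adjusted permutation p = 0.0004 and 0.0012) and the same rounded values in cortical culture (0.0002 and 0.0012), and 0.89 and 0.93 without the 2 arrays. The TGF-beta list gave r = 0.96 and 0.95 (adjusted permutation p = 0.0005 and 0.00032), rho = 0.94 and 0.93 (0.00125 and 0.00129), and 0.85 and 0.91 without them. For the synthesis of sulfated chains, r was 0.23 and 0.53 and did not pass (adjusted permutation p = 0.601 and 0.156; rho = 0.09 and 0.43). The 8 other family genes gave r = 0.92 and rho = 0.84 in hippocampal culture (adjusted permutation p = 0.00153 and 0.0103). In cortical culture they did not pass, with r = 0.40 and rho = 0.30 (0.349 and 0.492). Without the 2 arrays r was 0.73 and -0.04. Only 3 of these 8 genes averaged above background in hippocampal and 2 in cortical culture.

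Of the cell type lists, choroid plexus genes gave r = 0.93 and 0.91 (adjusted permutation p = 0.00102 and 0.0017; rho = 0.79 and 0.95) and pericyte and smooth muscle genes r = 0.94 and 0.84 (0.00153 and 0.008; rho = 0.86 and 0.87), and astrocyte genes r = 0.62 and 0.77 (0.0966 and 0.0209; rho = 0.43 and 0.76). Without the 2 arrays these became 0.84 and 0.87, 0.72 and 0.65, and 0.07 and 0.76. Neuronal genes gave r = -0.78 and -0.50 (adjusted permutation p = 0.0209 and 0.197; rho = -0.81 and -0.52), and -0.59 and -0.20 without them. Endothelial genes gave r = 0.74 and 0.88 (adjusted permutation p = 0.0209 and 0.00178; rho = 0.75 and 0.78), and 0.80 and 0.78 without them. The other brain proteoglycans and link proteins gave r = 0.79 and 0.83 (adjusted permutation p = 0.0132 and 0.0114; rho = 0.69 and 0.84), and 0.57 and 0.73 without them. Meningeal and fibroblast genes gave r = -0.05 and 0.56 (0.954 and 0.146; rho = -0.04 and 0.55). Of 8 endothelial genes, only 2 averaged above background in each culture. Of 9 choroid plexus genes, 5 did in hippocampal and 3 in cortical culture, and of 11 pericyte and smooth muscle genes 7 and 6. Of 18 meningeal and fibroblast genes, 3 and 0 did. The means of these lists thus include many genes at background. The part of any cell type in this variation was not tested.

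No relation of Fmod between the cultures of the same litter was detected. Over the 10 mouse IDs, Fmod in hippocampal and in cortical culture gave r = 0.01 and rho = -0.10 (adjusted permutation p = 0.977 and 0.838; 16 relations, the 8 members in the cultures and in the tissues). KO 4236 was lowest in both, but WT 2644 was highest in hippocampal culture at 12.51 and among the low ones in cortical culture at 9.29. Without 4236 and 2644, r was -0.33. Genotype means were not removed in these 16 relations. For Fmod, KO minus WT was -0.67 in hippocampal and 0.64 in cortical culture, which can mask a relation within a genotype. Such a relation was not tested. Dcn gave the largest r among the members in the cultures, 0.61, with rho = 0.58, which did not pass (0.361 and 0.384), and 0.46 without NT and 2037.

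In primary hippocampus, described over its 12 arrays with no test, Dcn went with Bgn (r = 0.90) and Lum (0.67), and Fmod with Prelp (0.74), while Fmod and Dcn gave 0.17. The arrays share the scale of normalization.

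Genotype was the last comparison and asks whether loss of Fmr1 changed the family. By the study's threshold, an unadjusted p under 0.05, 1 of 8 members was called in hippocampal culture (Bgn), 1 in cortical culture (Omd), 1 in primary hippocampus (Lum) and 0 in primary cortex, while 9.54%, 10.2%, 1.54% and 1.66% of all genes were called in these systems. After adjustment over all probe sets in limma, none of the 8 passed in any system. KO and WT arrays overlapped for every member in every system.

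In hippocampal culture Bgn read 6.34, 6.64, 6.32, 6.16 and 5.65 in KO and 5.64, 6.48, 9.05, 6.84 and 7.22 in WT. The difference was -0.83 (standard error 0.41, unadjusted limma p = 0.0497, adjusted p = 0.568, exact permutation p = 0.19). The WT array 2644, at 9.05, stood far above the others, and without it the difference was -0.33 with an unadjusted limma p of 0.372. The call was lost when any of 7 arrays was left out (KO 2037, 2221, 2620 and 4236 and WT 2644, 3569 and NT), with the 10 arrays of this system alone (p of 0.128) and with the litter as a block (p of 0.0525). Its 2 other probe sets gave -0.50 (exact permutation p = 0.0159) and -0.84 (0.135), both under the threshold in limma, with adjusted p of 0.386 and 0.531. Without WT 2236 the call count was 3 (Bgn, Dcn, Prelp), and without WT 2643 it was 2 (Bgn, Dcn).

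Fmod, Prelp and Ogn had negative values in hippocampal culture and positive ones in cortical culture, none of which passed. In hippocampal culture Fmod was at -0.67 (standard error 0.43, exact permutation p = 0.278), Prelp at -0.57 (0.34, exact permutation p = 0.27) and Ogn at -0.55 (0.54, exact permutation p = 0.46). Only the probe set 1415939_at of Fmod was called there, at -0.77 (unadjusted limma p = 0.0388, adjusted p = 0.538, exact permutation p = 0.167). In cortical culture they were at 0.64 (0.43, exact permutation p = 0.333), 0.58 (0.34, exact permutation p = 0.214) and 0.90 (0.54, exact permutation p = 0.317). On its second probe set, 1416322_at, Prelp was at only -0.10 in hippocampal and 0.07 in cortical culture. Dcn was at 0.97 (0.63, exact permutation p = 0.341) and 0.31 (0.63, exact permutation p = 0.69). With standard errors of this size, differences of 1 log2 unit lie within reach for each of these 4 genes.

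Omd in cortical culture read 5.83, 6.42, 5.50, 5.71 and 4.64 in KO and 5.71, 5.60, 4.76, 5.06 and 4.49 in WT. The difference was 0.50 (standard error 0.23, unadjusted limma p = 0.0375, adjusted p = 0.491, exact permutation p = 0.23). It was not called with the arrays of this system alone (p of 0.149) or when any of 6 arrays was left out (KO 2037, 2038 and 2620 and WT 2644, 3569 and NT), down to 0.30 without KO 2038. Without KO 4236, on which Fmod, Ogn and Prelp were among the lowest, or without WT 2236, on which they were high, 4 genes passed (Fmod, Ogn, Omd, Prelp), and without KO 2221, 2 did (Omd, Prelp).

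The difference between the 2 cultures in the genotype effect was added after these values had been seen. It called Fmod at -1.32 (standard error 0.61) and Prelp at -1.15 (0.48) at an unadjusted limma p of 0.0362 and 0.021, each with an adjusted p of 0.984, where 4.55% of all genes were called. All 6 Fmod probe sets were called, with values from -1.19 to -1.43. With the culture arrays alone neither gene passed (p of 0.102 and 0.0598). The count was 5 (Bgn, Fmod, Ogn, Omd, Prelp) without KO 4236 or WT 2236 of cortical culture or WT 2236 of hippocampal culture, and 0 without KO 2038 of cortical culture or KO 4236 or WT 2644 of hippocampal culture. It was 4 without WT 3569 of hippocampal culture, and 1 (Prelp) without KO 2037, KO 2620, WT 2644 or WT NT of cortical culture or WT 2643 or WT NT of hippocampal culture.

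Lum in primary hippocampus ran from 4.28 to 4.94 in KO (median 4.54) and from 4.65 to 5.57 in WT (median 4.86). The difference was -0.47 (standard error 0.13, unadjusted limma p = 0.000864, adjusted p = 1.0, exact permutation p = 0.026), with both means below background, so its size is not settled. Over the same arrays Dcn was at -0.42 (0.57, exact permutation p = 0.0887) and Bgn at -0.09 (0.37, exact permutation p = 0.277). Dcn was called with the arrays of this system alone, at an unadjusted limma p of 0.0499.

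Other genes of the tissue were read beside Lum. At an unadjusted limma p under 0.05, 172 of all 18193 genes were lower in KO in primary hippocampus and 108 higher. Of 28 collagen and fibril genes 2 were lower and 0 higher, Col3a1 with a log2 difference of -1.13 (standard error 0.28, adjusted p = 0.841) and Col6a2 with -0.35 (0.12, adjusted p = 1.0). Of 18 meningeal and fibroblast genes 4 were lower and 0 higher, Col3a1 and Islr (-0.51, 0.20, adjusted p = 1.0) among them. Of 9 choroid plexus genes 4 were lower and 0 higher, with Clic6 at -0.89 (0.16, adjusted p = 0.0213) and Sostdc1 at -0.49 (0.23, adjusted p = 1.0). These markers moved with Lum, and their part in it was not tested.

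The genotype effect in cultures less that in tissues called Lum at 0.39 (standard error 0.14, adjusted p = 0.599) at an unadjusted limma p of 0.00821, again below background, against 7.42% of all genes. The other 7 were between -0.28 and 0.81, with unadjusted limma p from 0.195 to 0.885.

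At the same threshold 485 of all 18193 genes were lower in KO and 1250 higher in hippocampal culture, and 736 lower and 1122 higher in cortical culture. Among the wider lists in hippocampal culture, 5 of 28 collagen and fibril genes were lower in KO and 0 higher (median -0.14 against 0.01 over all genes), with Col6a1 at -0.56 (adjusted p = 0.286), Eln at -0.85 (adjusted p = 0.353) and Col11a1 at -0.81 (adjusted p = 0.482). Of 23 TGF-beta genes 1 was higher and 3 lower, with Smad2 at 0.29 (adjusted p = 0.329) and Ltbp2 at -0.95 (adjusted p = 0.504). In cortical culture 1 collagen and fibril gene was higher and 2 lower, and 3 TGF-beta genes were higher and 0 lower. Eln, the elastin gene, was at 0.67 (adjusted p = 0.448) there and Ltbp2 at 0.89 (adjusted p = 0.5), and Col6a1 was at -0.38 (adjusted p = 0.442). Of the cell type lists, 2 of 12 neuronal genes were higher in KO in hippocampal culture, and none of the genes of the other lists was called there. In cortical culture 3 of 11 oligodendrocyte lineage genes and 2 of 15 astrocyte genes were higher, 2 of 10 microglial genes were lower, and of 11 pericyte and smooth muscle genes 1 was higher and 1 lower. The part of these cells in the values of the 8 genes was not tested.

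**Figure D4:**
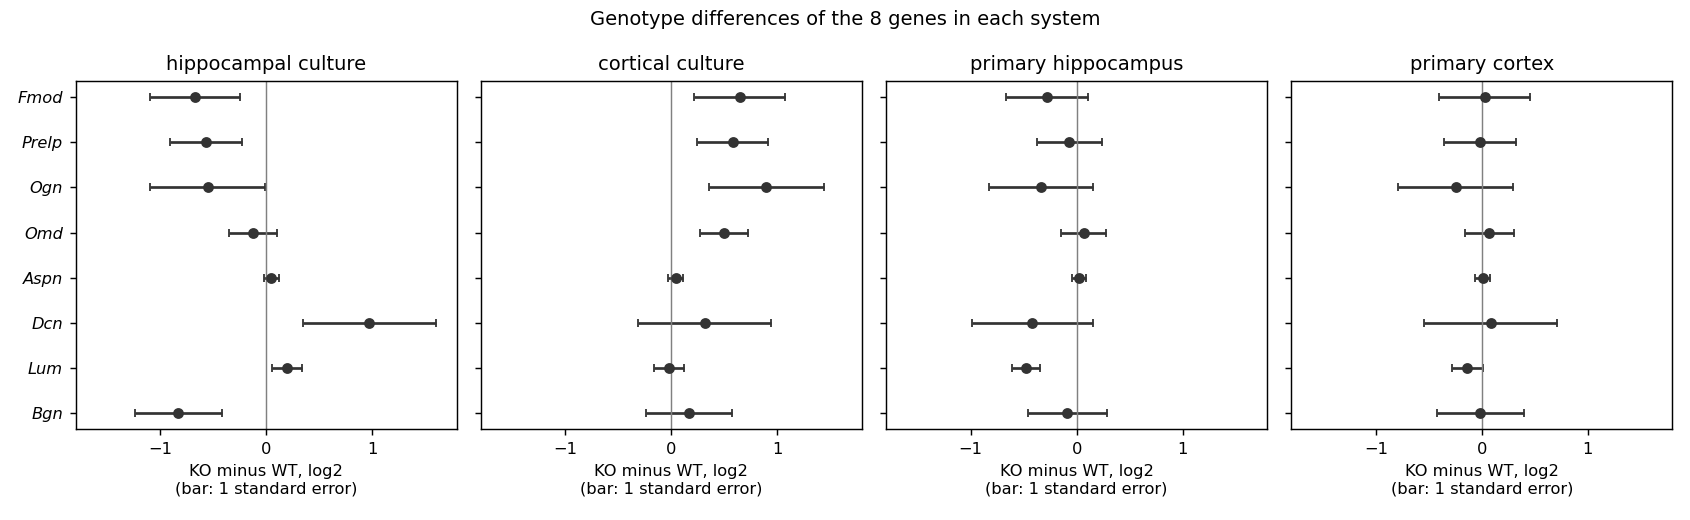
KO minus WT log2 differences of the 8 genes with 1 standard error, one panel per system. In the cultures Fmod, Prelp and Ogn lie below 0 in hippocampal and above 0 in cortical culture, none past the threshold, and in primary cortex all 8 lie between -0.25 and 0.09.

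Last, the genes with the most similar profile over the 8 group means were sought among 12631 genes above background in at least 1 group. Fmod was nearest to Icam5, with a root mean square difference of 0.54 on the log2 scale, then Pla2g7 (0.58) and Ephx1 (0.68). Ogn was nearest to Aldh1a1 (0.25), Slc39a12 (0.27) and Mt1 (0.33). Prelp was nearest to Synpr (0.29), Dio2 (0.36) and S1pr3 (0.38), and Dcn to Ccdc3 (0.35), Id3 (0.38) and Gm5089 (0.43). Bgn was nearest to Grhpr, Olfml3 and Mcam, each at 0.16, and Omd to Misp3 (0.08), Ptprm (0.10) and Ppfibp1 (0.11). The Fmod distances are the widest of these. Its group means also ran over the widest range, from 3.90 to 11.21, and such distances tend to grow with the range. They therefore do not show that the profile of Fmod was less well matched.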

How the data were processed

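Total RNA of each pooled sample had been hybridized to Affymetrix mouse arrays. The authors deposited log2 values made from the scans with RMA, which corrects background, normalizes quantiles across arrays and summarises each probe set. The study's methods speak of 1 such matrix for all 42 arrays. Such scaling hides any shift shared by all genes. Arrays have no counts, so their number limits the precision.

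Of 45101 probe sets, 64 controls were left out. The remaining 45037 included 34945 with 1 gene, 932 with several and 9160 with none; the latter kinds were tested but not counted as genes. Names came from the platform annotation, which can be old. Groups were taken from the sample labels. Group means were fitted over all 42 arrays with limma 3.58.1 in R 4.3.3 (lmFit, eBayes), with Benjamini-Hochberg adjustment over all probe sets. Following the study's methods, genotype calls used an unadjusted p under 0.05; region calls used an adjusted p under 0.05. Exact permutation p-values cannot go below 0.00794 for 5 arrays against 5 and 0.00216 for 6 against 6. The fit was tested on simulated data. Fold bounds use the higher of the background and the measured value on each array. Correlations used 100000 resamples and exact tests all rearrangements, two-sided, in SciPy 1.17.1; adjusted values of 0.0002 rest on 1e-05, the smallest p these resamples can give. P-values measure the spread between pooled samples. In the fit of all arrays this is 1 spread per gene, shared by cultures and tissues. Within groups, Fmod, Dcn, Bgn, Ogn, Omd and Prelp had 1.77 to 8.06 times the SD in culture that they had in tissue. For them the standard errors and p-values of that fit are too small in culture and too large in tissue. Lum and Aspn, with ratios of 0.57 and 0.73, go the other way. The study's methods state that KO and WT samples were handled in same-day pairs, but the labels name no pair, so the genotype tests do not use it.

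The labels give a mouse ID and the pooling of littermates; an ID is read here as 1 pooled litter and taken to pair samples across systems. Same-numbered samples deviated together between the tissues (r from 0.248 to 0.519 over genes, 10 of 10 over 0.1) and mostly between the cultures (-0.116 to 0.58, 9 of 10). Between culture and tissue this was not shown. There the median r was 0.0415 in hippocampus (2 of 10 over 0.1) and 0.032 in cortex (3 of 10). Each ID has 1 genotype, so it entered genotype fits as a random block and region fits as a fixed one. Named genes were all members, Fmr1, the list genes with the smallest p (up to 4 per list and comparison, above background) and the 3 genes nearest each member in profile. The members and lists were chosen with earlier results of these data known. The alternatives tried were other sets of arrays, a variance trend, array weights, median centring, repeated quantile normalization, a background filter, other probe sets, the block and leaving out each array.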

Additional observations from a re-analysis of the deposited data

Results flagged for a closer look

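Dcn was singled out because its region difference changed between tissue and culture, by -2.79 on the log2 scale (standard error 0.61, limma adjusted p = 0.000537), a tested difference.

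Of 64 sets of values (8 genes in 8 groups), 5 held an array far from the rest; chance alone gives about 1 in 20. The KO litter 4236 was low for Fmod in cortical culture (8.72) and for Ogn in both hippocampal (6.85) and cortical culture (6.58). The WT litter 2643 was high for Dcn in cortical culture, at 8.87. The WT sample NT was high for Bgn in primary hippocampus, at 7.94.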

How the results depend on the processing

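The count of members called for genotype changed with most settings. In hippocampal culture it was 1, and 0 with the arrays of that system alone, with the culture arrays alone (a setting chosen after seeing the data), with median centring, with repeated quantile normalization and with the mouse ID as a block, and 2 (Bgn, Fmod) with the probe set of the smallest p; it ran from 0 to 3 when 1 array was left out. In cortical culture it was 1, 0 with either smaller set of arrays and 4 with array weights, with a range of 0 to 4. In primary hippocampus it was 1, 0 with only probe sets above background, where Lum drops out, and 2 (Dcn, Lum) with its own arrays. For the effect in cultures less that in tissues it was 1, and 0 above background. For the difference between the cultures it was 2, 5 with array weights and 0 with the culture arrays, with a range of 0 to 5. For region in culture the count was 2 and 4 with array weights (Fmod, Lum, Omd, Prelp). For the change of the region difference it was 1 and 2 (Dcn, Prelp) with array weights or above background, with a range of 1 to 5. Members over 2-fold higher in cortical culture were 5, and 2 with values below background raised to it; those lower in hippocampal culture ran from 1 to 2 when 1 array was left out. For region in tissue the count was 4 to 6 under the alternatives run. The difference of Fmod between culture and tissue was 5.92, 6.02 within mouse IDs and 5.84 to 6.04 with 1 array left out. The block by mouse ID changed no other call. Fits of 1 system or of the cultures alone left each difference as it was and took its spread from those arrays only. The cause of the other changes was not tested. Some differences that were not called changed sign, such as Bgn for KO in cultures less tissues, -0.28 and 0.09 with array weights. Low signal limits Lum, Omd, Aspn and, in tissue, Fmod and Ogn.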

Other observations

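The genes that followed Fmod most closely from array to array were looked for after its values had been seen, so they are given as a description, with no test. By the lower of the 2 within-culture correlations over 12631 genes, with 10 arrays in each culture, the closest were Pdgfrl, a receptor-like relative of the PDGF receptors (r = 0.98 in hippocampal and 0.99 in cortical culture), Bmp6, a ligand of the TGF-beta family (0.98 and 0.98), Pdpn, a surface glycoprotein of epithelia and stromal cells (0.98 and 0.98), Igfbp2, a carrier of insulin-like growth factors (0.98 and 0.98), Clu (0.98 and 0.98) and Smo, the hedgehog signal transducer (0.98 and 0.97).

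For Ogn the closest were Fbln5, of elastic fibres (r = 0.98 and 0.98), Pdgfrb, the PDGF receptor of mural cells (0.98 and 0.98), and Ltbp3, a carrier of latent TGF-beta (0.97 and 0.98), and Fmod itself was close behind (0.97 and 0.97). For Bgn they were the basement membrane gene Nid1 (0.98 and 0.93), Cpd (0.92 and 0.93) and Fzd5 (0.94 and 0.92), with the fibronectin gene Fn1 next (0.91 and 0.95). For Prelp they were Hacd4 (0.96 and 0.96) and Folr1, the folate receptor of the choroid plexus (0.94 and 0.97). For Dcn the closest, Plpp5 (0.83 and 0.87) and Vac14 (0.83 and 0.82), were less close than for the other members listed here.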
